A study of Mus musculus with 57 samples.

Results

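The sites described here are the places in the genome that GATA6 occupied in every GATA6 list from 2 to 48 h of induction. They were chosen by the measured GATA6 peaks: overlapping peaks of the 2 h lists were merged, a merged region had to hold a peak of both 2 h lists, and it had to overlap by at least 1 bp a peak in both lists at 4 h, both at 8 h and both at 48 h. Of 44776 such 2 h regions, 2321 met the rule and are called lasting sites. The cells were KH2 mouse embryonic stem cells (strain C57BL/6 by the labels), all from one engineered line, with a single-copy TRE transgene in which doxycycline switches on FLAG-tagged GATA6 together with the DsRed2 reporter. Every group carried this transgene. At 0 h the cells were in 2i medium with LIF, which keeps them Epi-like. The 2, 4 and 8 h cells were in serum medium with LIF and 1 µg/mL doxycycline, and the 24 and 48 h cells had doxycycline for the first 12 h and the same medium without it afterwards, so medium and induction cannot be told apart between 0 h and later times. Binding was mapped by CUT&RUN, in which an antibody directs a nuclease to the sites of a protein and the released fragments are sequenced, and each group had 2 replicate peak lists. Lists of GATA6 cover 0, 2, 4, 8 and 48 h, those of NANOG and of SOX2 stop at 8 h, and GATA4 and SOX17 were each mapped once, at 24 h. The titles of both GATA6 48 h samples are marked as merged. No expression is held in these lists, so the identity of the cells was not checked.

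GATA6 is a zinc finger transcription factor that binds short GATA motifs and starts the gene network of the primitive endoderm (PrE), the layer of the blastocyst that goes on to form yolk sac endoderm. GATA4, a paralogue that binds the same motif, and the HMG box factor SOX17 act after it in that network. NANOG and SOX2 are the factors that hold cells in the epiblast (Epi) state, and SOX2 and SOX17 share a core recognition motif.

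To show what GATA6 held on to, the reference sequence (RefSeq, GRCm38, plus strand) from 100 bp before to 100 bp after the 2 h summit is given for 8 lasting sites. The first pair are the sites with the highest GATA6 rank of all, at chr2:104098707-104098907 in an intron of Cd59a, which encodes a complement inhibitor, and at chr8:108606924-108607124 in an intron of Zfhx3, which encodes a homeobox transcription factor. The others are the highest ranking sites near Gata4 (chr14:63231189-63231389, intronic), Sox17 (chr1:4474689-4474889, intergenic), Foxa2 (chr2:148040809-148041009, intergenic), Pdgfra (chr5:75146471-75146671, in an exon of the non-coding gene Gm19583), Cubn (chr2:13496084-13496284, intergenic) and Lamb1 (chr12:31229380-31229580, intergenic). Capitals mark GATA matches, which are the letters GATA preceded by A or T and followed by A or G on either strand, and matches to the SOX core ACAATG on either strand.
Cd59a: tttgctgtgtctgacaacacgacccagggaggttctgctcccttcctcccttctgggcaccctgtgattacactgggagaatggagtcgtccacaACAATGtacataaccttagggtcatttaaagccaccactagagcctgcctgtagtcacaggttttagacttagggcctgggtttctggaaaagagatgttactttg
Zfhx3: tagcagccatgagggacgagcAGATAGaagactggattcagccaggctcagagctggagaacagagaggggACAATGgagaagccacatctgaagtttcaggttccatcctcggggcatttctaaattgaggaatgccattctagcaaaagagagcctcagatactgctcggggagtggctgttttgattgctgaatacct
Gata4: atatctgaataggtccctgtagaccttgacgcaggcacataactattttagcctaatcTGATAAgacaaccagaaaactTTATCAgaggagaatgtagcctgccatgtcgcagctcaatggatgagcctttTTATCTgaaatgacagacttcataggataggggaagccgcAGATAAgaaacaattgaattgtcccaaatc
Sox17: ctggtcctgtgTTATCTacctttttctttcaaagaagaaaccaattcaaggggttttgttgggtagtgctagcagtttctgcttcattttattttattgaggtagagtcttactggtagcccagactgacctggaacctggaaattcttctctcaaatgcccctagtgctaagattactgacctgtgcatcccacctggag
Foxa2: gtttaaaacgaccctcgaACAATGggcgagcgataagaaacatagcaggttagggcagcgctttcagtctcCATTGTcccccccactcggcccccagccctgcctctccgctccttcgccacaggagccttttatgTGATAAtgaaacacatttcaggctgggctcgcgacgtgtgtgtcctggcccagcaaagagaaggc
Pdgfra: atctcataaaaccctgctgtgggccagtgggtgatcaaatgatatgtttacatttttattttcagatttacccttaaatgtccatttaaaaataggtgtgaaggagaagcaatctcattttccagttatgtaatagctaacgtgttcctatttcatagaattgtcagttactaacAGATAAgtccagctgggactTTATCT
Cubn: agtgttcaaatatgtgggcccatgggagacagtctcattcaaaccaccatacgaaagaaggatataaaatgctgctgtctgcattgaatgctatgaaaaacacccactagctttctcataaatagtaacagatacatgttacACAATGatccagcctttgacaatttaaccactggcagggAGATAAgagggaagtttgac
Lamb1: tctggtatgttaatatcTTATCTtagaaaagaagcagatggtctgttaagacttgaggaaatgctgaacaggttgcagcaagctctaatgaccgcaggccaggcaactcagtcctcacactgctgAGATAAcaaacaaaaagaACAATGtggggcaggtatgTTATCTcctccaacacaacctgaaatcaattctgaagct
The Gata4 window held 4 GATA matches and the Lamb1 window 3. The Cd59a window held none, and its only capitals are an ACAATG match centred 2 bp from the summit.

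The lists varied in length and depth, which limits how far shares can be set side by side between lists. They held between 86 and 79358 peaks, all at a q-value of 0.05 or less. Depth was taken as the background coverage that the peak caller used, recovered from the fold and p columns, and lay between 0.928 and 1.34 fragments per base in the GATA6 lists from 2 to 48 h, between 0.865 and 1.31 for NANOG, between 0.290 and 0.692 for SOX2 and at 1.23 and 1.55 for SOX17. The GATA6 0 h lists, the uninduced background, held a peak at 3 and 8 of the 2321 lasting sites. Of the lasting sites 2 lay on the mitochondrial chromosome and 40 held a peak in every list other than the GATA6 0 h ones. Leaving out the mitochondrial sites and those with a 0 h peak left 2313.

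The 6 GATA6 lists at 4, 8 and 48 h are deposited under records of other time points than the names inside them, and the times used here follow the names. Which regions are lasting does not depend on this, because all 8 lists are needed. The order of the values does depend on it, as does the class of released sites described further on, which rests on which lists are those of 48 h. Across the 2321 sites, Spearman correlations of GATA6 fold with the 2 h lists were 0.80 to 0.82 for the lists named 4 h, 0.61 to 0.63 for those named 8 h and 0.12 to 0.17 for those named 48 h, against 0.91 between the 2 h replicates and 0.70 between the lists named 48 h. These are descriptions across sites of the same libraries, with no test. By the records, the lists under 4 h would be the pair with the lowest fold and those under 48 h the pair named 8 h.

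The median GATA6 fold at the lasting sites was lower in both 48 h lists than in the 6 lists from 2 to 8 h. As the rule used these lists, the values are descriptions. The 2 h lists had a median fold over control of 14.5 and 12.0, the 4 h lists of 12.6 and 15.6, the 8 h lists of 11.2 and 12.5 and the 48 h lists of 7.26 and 7.22. The median percentile of these peaks within their own list was 90.5 and 87.7 at 2 h and 66.8 and 79.0 at 48 h. The 2 h lists held 79358 and 62683 peaks and the 48 h lists 5933 and 9767, so list length moved with the percentile and a change in it is relative to lists of unequal length. Both 48 h percentiles lay below both 2 h percentiles at 1329 lasting sites and above them at 436, and they overlapped at 556. Among all 2556 regions of 2 h with a peak in both 48 h lists, 54.0% lay below and 20.0% above. The median change was -13.9 percentile points. The direction turned with the peaks of every list limited to the top 10000: the median percentile was then 3.21 points higher at 48 h than at 2 h, at the 1214 sites that met the rule.

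**Figure D1:**
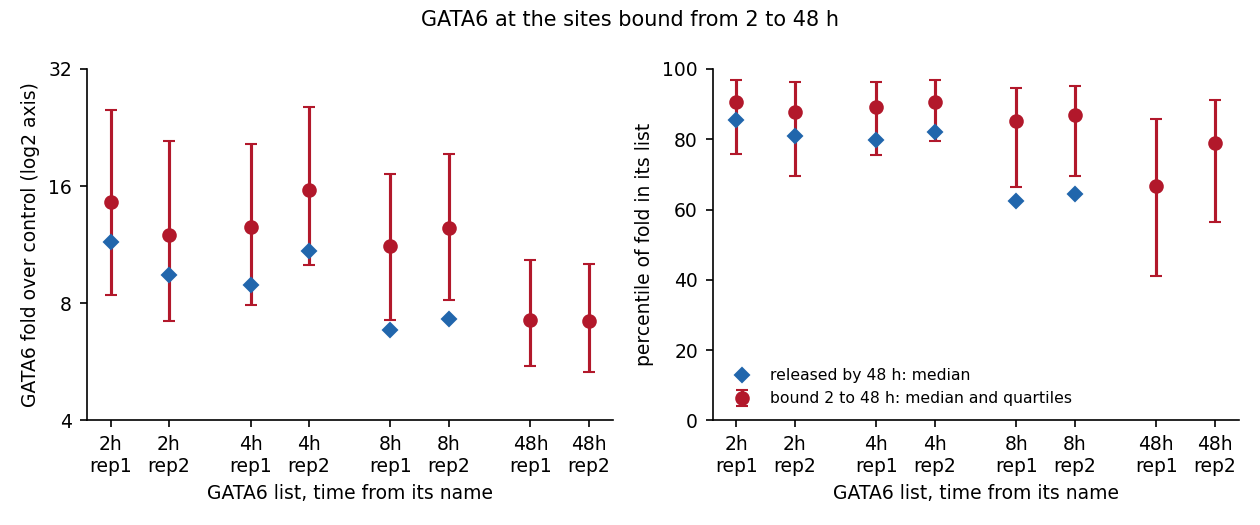
GATA6 at the lasting sites in each of the 8 GATA6 lists from 2 to 48 h, as fold over control (left, log2 axis) and as the percentile of that fold within its list (right). Circles and bars are the median and quartiles over 2321 lasting sites, and diamonds the median over 12429 released sites, which had no 48 h peak. The circles lie above the diamonds in all 6 lists that hold both.

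The edge of the class was set by the 48 h lists. Of 16439 regions bound in both lists at 2, 4 and 8 h, 12429 had no peak in either 48 h list and are called released sites, and they are the class that the lasting sites are set against. Another 1689 had a peak in 1 of the 48 h lists, 503 in replicate 1 only and 1186 in replicate 2 only. Their median 48 h fold was 5.19 and 4.95, against 7.26 and 7.22 at the lasting sites, and in the 8 GATA6 lists from 2 to 48 h the lowest −log10 q at a lasting site was between 1.30 and 1.68. Without the shorter 48 h list, replicate 1, 3507 regions met the rule.

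GATA4 and SOX17 at 24 h occupied most lasting sites, and smaller shares of the released ones. A GATA4 peak was present at 71.8% and 61.2% of lasting sites in the 2 lists, against 12.2% and 6.02% of released sites. SOX17 covered 87.7% and 93.2% of lasting sites, against 31.1% and 40.5% of released sites and 28.0% and 36.0% of all 2 h regions. Both lists of GATA4 held a peak at 1314 lasting sites (56.6%), where 5.55% of all 2 h regions did, and both lists of SOX17 at 2009 (86.6%), where 25.1% did. With 2 lists a factor, these differences have no test. GATA4 and SOX17 were together in all 4 lists at 1217 lasting sites (52.4%) and 3.14% of released sites. Neither factor was in any list at 72 lasting sites (3.10%), against 53.6% of released sites and 66.4% of the other 2 h regions. SOX17 in both lists and GATA4 in neither was about as frequent in each class, at 399 lasting sites (17.2%), 19.0% of released sites and 14.8% of the others. GATA4 in both lists and SOX17 in neither was seen at 31 lasting sites (1.34%), 0.5793% of released sites and 0.1499% of the others.

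GATA6 strength moved with these shares, as the lasting sites had a higher 2 h fold than the released sites (median of the mean fold 13.4 against 10.5). Within 5 bins of equal number of the 2 h fold, the difference between lasting and released sites was 57.7 and 53.0 percentage points for GATA4 and 54.9 and 51.6 for SOX17. Within bins of the 8 h fold it was 52.6 and 47.6 for GATA4 and 56.3 and 52.6 for SOX17. Regions bound at 48 h in replicate 1 only had a GATA4 peak in 42.9% and 29.6% and a SOX17 peak in 70.0% and 80.5% of cases, between the lasting and the released sites.

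NANOG was at few lasting sites at 0 h, at most of them at 2 h, and at few again at 8 h. The 0 h lists held a NANOG peak at 14.9% and 21.3% of lasting sites, the 2 h lists at 75.8% and 58.0%, the 4 h lists at 54.5% and 53.6% and the 8 h lists at 15.1% and 11.2%. The lists at 2 and 4 h all lay above those at 0 and 8 h. The mean share was 48.8 percentage points higher at 2 h than at 0 h, and the shares differed between time points (exact permutation test, 8 lists exchanged between 4 time points, two-sided, p = 0.0190, adjusted over 6 tests 0.0313). List length moved with the shares, as the 0 h lists held 10693 and 16180 NANOG peaks and the 2 h lists 52285 and 26742. With every NANOG list limited to the length of the shortest the difference between 2 and 0 h was 8.60 points. The test over the 4 time points then gave an adjusted p of 0.0143 (exact permutation test). Without either 4 h list the call of the main test was lost. Counting sites with a NANOG peak in both lists, there were 321 in the 0 h lists, 1306 in the 2 h lists, 1022 in the 4 h lists and 136 in the 8 h lists. Among all 2 h GATA6 regions the corresponding shares were 13.0%, 36.7%, 15.1% and 1.07%. At 812 lasting sites (35.0%) NANOG was in both 2 h lists and in neither 0 h list, against 25.2% of released sites and 14.4% of the other 2 h regions. Of these, 592 had no NANOG peak in either 8 h list, which is 25.5% of lasting sites beside 22.3% of released sites and 13.8% of the others.

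SOX2 was also at more lasting sites after induction, and still at most of them at 8 h. The 0 h lists held a SOX2 peak at 31.2% and 29.0% of lasting sites, the 2 h lists at 49.4% and 68.8%, the 4 h lists at 87.5% and 72.3% and the 8 h lists at 73.0% and 71.7%. All 6 lists from 2 h on lay above both 0 h lists. The mean share was 29.0 percentage points higher at 2 h than at 0 h, and the time points differed (exact permutation test, p = 0.0190, adjusted 0.0313). With every SOX2 list limited to the length of the shortest the difference was 17.5 points. The test over the 4 time points then gave an adjusted p of 0.0143 (exact permutation test). Without 2 h replicate 2 the difference was 19.3 points. The call was lost without 0 h replicate 2, 2 h replicate 1, 4 h replicate 1 or either 8 h list, with adjusted p up to 0.133. The 8 h lists were the shortest of SOX2, with 14055 and 11540 peaks, and replicate 1 of them had the lowest SOX2 coverage, while the 0 h lists held 31695 and 26826. Sites with a SOX2 peak in both lists numbered 578 in the 0 h lists, 1099 in the 2 h lists, 1630 in the 4 h lists and 1449 in the 8 h lists, beside, in that order, 25.7%, 33.3%, 35.6% and 14.9% of all 2 h GATA6 regions. In both 8 h lists and neither 0 h list, SOX2 was seen at 812 lasting sites (35.0%) and at 9.70% of released sites. The opposite course, both lists at 0 h and neither at 8 h, was found at 25 lasting sites (1.08%), 5.51% of released sites and 15.2% of the other 2 h regions.

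**Figure D2:**
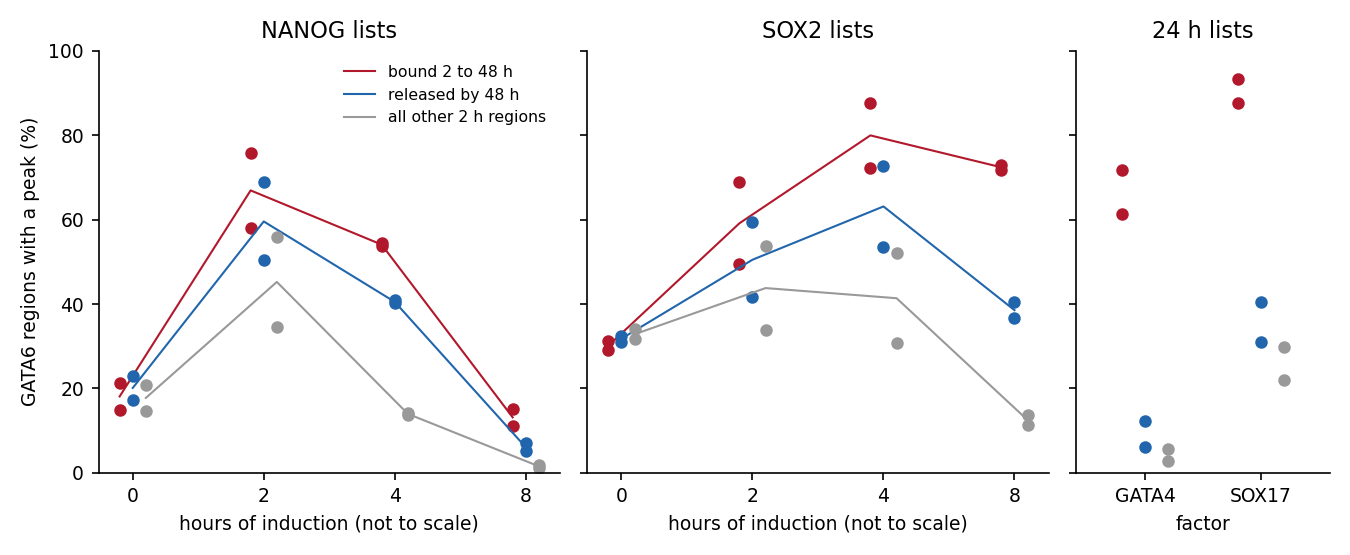
Percent of lasting sites (red, n = 2321), released sites (blue, n = 12429) and all other GATA6 2 h regions (grey, n = 30026) that hold a peak of NANOG or SOX2 at 0, 2, 4 and 8 h, or of GATA4 or SOX17 at 24 h. Each point is 1 list and lines join the means of 2 lists. At 8 h SOX2 marked 73.0% and 71.7% of lasting sites and 40.4% and 36.7% of released sites.

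At 0 h the shares of lasting and released sites lay close together for both Epi factors. The gap, lasting minus released, was -2.32 and -1.71 percentage points for NANOG and -1.31 and -2.03 for SOX2. For NANOG the gap was then 6.98 and 7.73 points in the 2 h lists, 13.6 and 13.5 in the 4 h lists and 8.16 and 6.03 in the 8 h lists. For SOX2 the 2 h lists gave 7.75 and 9.50, the 4 h lists 14.7 and 18.9 and the 8 h lists 32.6 and 35.1, so the lasting sites were higher in 6 of 8 lists of each factor. Over the 8 lists the mean gap was 6.50 points for NANOG and 14.4 for SOX2 (exact sign-flip permutation tests, two-sided, p = 0.0313 for each, adjusted 0.0313). The gap itself differed between time points for NANOG (exact permutation test, p = 0.0286, adjusted 0.0313) and for SOX2 (p = 0.00952, the smallest that the arrangements can give, adjusted 0.0313).

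GATA6 strength moved with the mean gaps. For NANOG, within 5 bins of the GATA6 2 h fold the mean gap was 0.546 points (exact sign-flip permutation test, adjusted p = 0.766) and within bins of the 8 h fold -0.848 (adjusted p = 0.242). The SOX2 gap within the same bins was 8.60 points (adjusted p = 0.178, exact sign-flip permutation test) and 7.86 (adjusted p = 0.0586). Without any 1 NANOG or SOX2 list at 2, 4 or 8 h the mean gap of that factor did not pass, with values of 5.48 to 6.57 points for NANOG and 11.5 to 15.4 for SOX2. The differences of the gap between time points passed within both sets of bins but were smaller. In place of 9.37 points, the NANOG gap grew from 0 to 2 h by 5.74 within bins of the 2 h fold. Within bins of the 8 h fold it grew by 2.60. For SOX2 these values were 6.87 and 4.36 in place of 10.3. The tests over the 4 time points gave, in the same order of bins, adjusted p of 0.0190 and 0.0381 for NANOG. For SOX2 they gave 0.0190 and 0.0286 (exact permutation tests). Within bins of the 8 h fold the NANOG gaps were below 0 in both lists at 2 h (-0.171 and -1.29 points) and at 4 h (-0.136 and -0.664). At 8 h alone, SOX2 was higher at lasting sites by 27.1 and 29.4 points within bins of the 2 h fold and by 19.4 and 21.8 within bins of the 8 h fold.

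SOX2 at 8 h and SOX17 at 24 h met at the same lasting sites. Both lists of each held a peak at 1343 lasting sites (57.9%) and 13.5% of released sites. Taken alone, SOX2 was in both 8 h lists at 62.4% of lasting and 26.3% of released sites. For SOX17 in both lists these shares were 86.6% and 27.8%. Among the 2009 lasting sites with SOX17 in both lists, SOX2 was in both 8 h lists at 66.8%, against 34.0% of the 312 others. GATA4 was in both lists at 60.6% of the former and 31.1% of the latter. Lasting sites with SOX2 in both 0 h lists carried GATA4 in both lists at 56.4% of 578, against 56.7% of the 1743 others. SOX17 was in both lists at 97.23% of the former and 83.02% of the latter. These are shares across sites of the same libraries, with no test.

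The summits lay close together. The median distance between the GATA6 summits of the 2 h replicates was 41 bp and that between the 48 h replicates 40 bp. From 2 to 48 h it was 66 bp within replicate 1 and 60 bp within replicate 2. Measured from the 2 h replicate 1 summit, GATA4 summits were a median of 74 and 69 bp away, SOX17 summits 82 bp in both lists, and SOX2 summits 77 and 78 bp at 8 h. The SOX2 summits at 0 h were farther, at 118 and 109 bp with upper quartiles of 329 and 315 bp.

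GATA motif letters flanked the summits and were fewer at the summit itself, at lasting and released sites alike. A GATA match lay within 100 bp of the 2 h summit at 1675 lasting sites (72.2%), at 65.0% of released sites and at 54.1% of all 2 h regions. Matches per 20 bp bin and 1000 sites reached 192 at 70 bp on the left and 189 at 90 bp on the right of the summit, and were 58.6 and 69.4 in the bins beside it, against 41.0 more than 400 bp away. At released sites the same profile reached 217 and 227 on the flanks and was 73.1 and 81.1 beside the summit. More than 400 bp away it was 62.1 at released sites, higher than at lasting sites there too. Within 50 bp of the summit only 34.0% of lasting sites had a match, while 98.2% of whole merged regions did, so the share depends on the window. At 3 lasting sites (0.129%) 7 or more GATA matches lay within 100 bp of the summit, against 448 released sites (3.60%) and 1.21% of all 2 h regions.

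**Figure D3:**
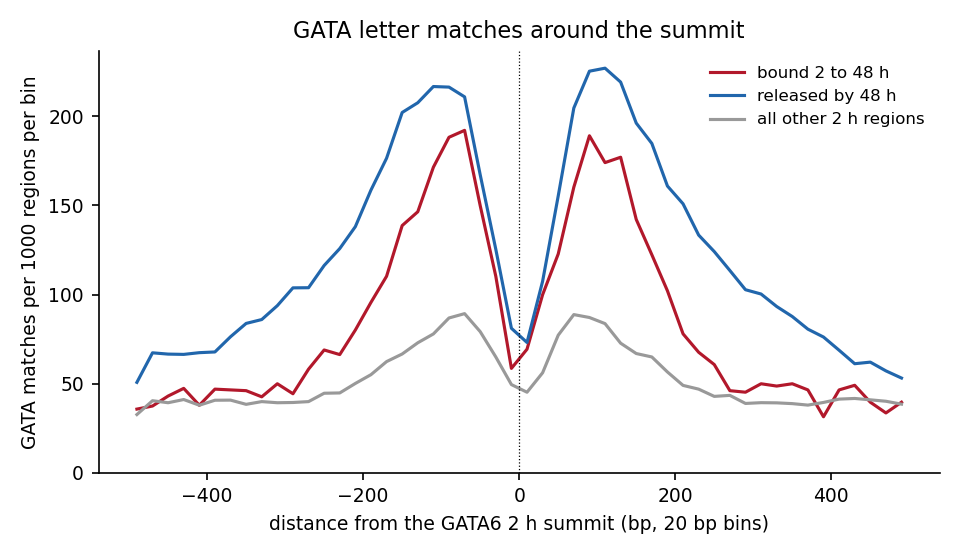
GATA letter matches per 1000 regions in 20 bp bins against the distance from the GATA6 2 h summit, for lasting sites (red), released sites (blue) and all other 2 h regions (grey). The lasting sites show 192 and 189 matches per bin on the flanks and 58.6 and 69.4 beside the summit, and the released sites have the same dip.

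Other letters were also counted within 100 bp, on both strands. ACAATG, the SOX core, was found at 21.5% of lasting sites, 13.4% of released sites and 14.9% of all 2 h regions. The OCT octamer ATGCAAAT was found at 1.46%, 2.79% and 2.93%, and CAAGGTCA, the nuclear receptor half-site bound by ESRRB and NR5A2, at 2.71%, 3.35% and 3.62%. TGANTCA, the AP-1 motif, was found at 8.70%, 11.6% and 14.6%. At lasting sites with ACAATG, SOX17 was in both lists at 93.8% of 498, against 84.6% of the 1823 without it. A match is a description of letters and not of binding.

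The lasting sites were also sorted by the change in GATA6 percentile from 2 to 48 h, which uses the values of the rule and lists of unequal length, so the groups are descriptions and separate sites by their 2 h strength as well. Of 5 groups of equal number, the lowest group had a median change of -53.8 points and the highest of 23.9. SOX2 was in both 0 h lists at 43.0% of the lowest group, then 30.8%, 28.9%, 18.8% and 3.02% of the highest. NANOG was in both 2 h lists at 73.1% of the lowest and 14.9% of the highest group. GATA4 was in both lists at 46.9% of the lowest group, 69.4% of the fourth and 61.2% of the highest, and a GATA match was present at 62.4% of the lowest and 81.0% of the highest. SOX17 lay between 82.3% and 90.1% in all 5. The highest group had a median 2 h fold of 6.13 against 15.3 to 17.2 in the others, so strength at 2 h moved with these shares and its part in them was not tested. A TSS lay within 1 kb of 15.5% of the lowest and 3.88% of the highest group.

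**Figure D4:**
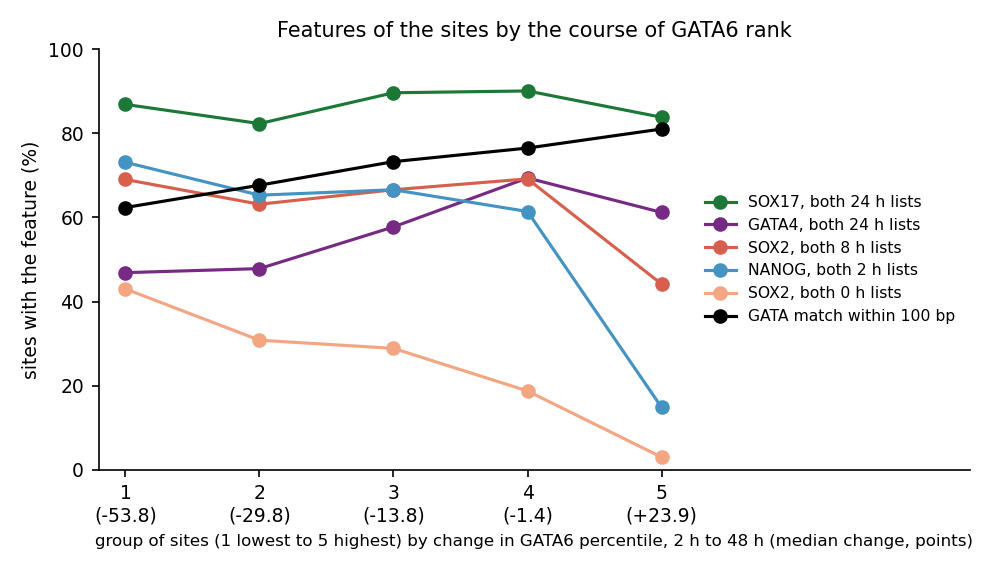
Percent of lasting sites with each feature in 5 groups of 464 or 465 sites, ordered by the change in GATA6 percentile from 2 to 48 h (median change in points under each group). SOX2 at 0 h runs from 43.0% to 3.02% and the GATA match from 62.4% to 81.0% from the lowest to the highest group.

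Single sites show both courses. At an intergenic site of chr3:52650182-52650483, 367 kb from Cog6, GATA6 fold was 3.31 and 3.79 at 2 h, 4.46 and 8.55 at 4 h, 13.5 and 11.4 at 8 h and 15.6 and 19.4 at 48 h. SOX17 was at 16.6 and 24.3 there and NANOG in no list. The other large rises were nearest to Mvb12b, Foxq1, Lmo7 and Aldh3b3. None of the 5 sites held NANOG at 0 h, when only 22.4% of all lasting sites had it in any list. Among the 5 largest falls, an intron of Sh3pxd2a (chr19:47390622-47392066), which encodes a scaffold protein of podosomes, went from 32.9 and 19.6 at 2 h to 3.41 and 3.01 at 48 h. It carried SOX2 at 0 h at fold 13.9 and 7.80 and no GATA4. The other 4 were nearest to Cckar, Trim8, Serpinb6b and Serpinb1b.

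The lasting sites were mostly far from promoters. Their summits were intronic at 1138 (49.0%), intergenic at 1035 (44.6%), in UTRs at 62, in coding exons at 14 and in other exons at 72, by the GENCODE vM21 annotation. The released sites were intronic at 50.0% and intergenic at 44.5%. The median distance to the nearest protein-coding TSS was 18425 bp, against 21870 bp for released sites, and 249 lasting sites (10.7%) lay within 1 kb. These 249 carried SOX2 in both 0 h lists at 59.0%, against 20.8% of the 2072 others, and a GATA match at 51.8% against 74.6%. The regions themselves were wider than the released ones, with a median of 1023 bp against 882.

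Genes of the PrE had lasting sites nearby. By the rule that a TSS lies within 50 kb, 2940 of 21829 protein-coding genes (13.5%) had one. Of 8 PrE transcription factors 7 did (among them Gata6, Gata4, Sox17, Sox7, Foxa2 and Foxq1), as did 6 of 8 basement membrane genes (Lama1, Lamb1, Lamc1, Col4a1, Col4a2 and Sparc) and 4 of 9 PrE receptors and adaptors (Pdgfra, Lrp2, Cubn and Amn). Col4a1 and Col4a2 have the same highest ranking site. Of 14 pluripotency transcription factors 6 had a lasting site (Nanog, Pou5f1, Esrrb, Klf5, Tbx3 and Sall4), and of 9 epiblast signalling genes 3. The serum proteins of visceral endoderm had 2 of 8, trophectoderm genes 2 of 8, genes of other GATA expressing tissues 1 of 8 and the neural and lymphoid controls 1 of 8. The more numerous released sites lay within 50 kb of 4 PrE transcription factors, 5 basement membrane genes and 7 receptors and adaptors. They also lay near 13 pluripotency factors, 9 epiblast signalling genes, 3 serum protein genes and 7 trophectoderm genes. Of the last 2 lists, 4 and 5 genes had a released site. The lists were drawn up with results of these data known, so their counts are descriptions. Within 10 kb of a TSS, 20 of all 80 listed genes had a lasting site in place of 32.

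At the highest ranking sites near 3 PrE transcription factors, Gata4, Sox17 and Foxq1, both 48 h GATA6 percentiles lay above both at 2 h. This was so at 18.8% of all lasting sites, and it describes values that the rule used, from lists of unequal length. At the Gata4 intron, 14.0 kb inside the gene, GATA6 fold was 8.04 and 7.10 at 2 h, 18.3 and 19.6 at 4 h, 15.7 and 13.5 at 8 h and 19.5 and 20.5 at 48 h. The percentile went from 73.9 and 67.4 to 98.0 and 99.0, with no overlap between the 2 h and 48 h lists. SOX17 lay there at fold 15.3 and 23.0 and GATA4 itself at 5.19 and 5.64. SOX2 was absent at 0 h and at 8.35 and 12.3 at 8 h. The Sox17 site, 18.9 kb from the TSS, went from 4.96 and 9.27 at 2 h to 13.0 and 12.1 at 48 h and held NANOG in none of 8 lists. At Foxq1, a forkhead factor gene, the site 24.6 kb upstream went from 5.71 and 4.30 to 12.3 and 17.2, with SOX17 in both lists and GATA4 at 12.6 and 15.9. The highest ranking site near Gata6 lay 45.4 kb upstream and had percentiles of 94.8 to 97.3 in the 4 lists at 2 and 48 h. The Foxa2 site ranked lower at 48 h than at 2 h, and the Sox7 site was among the weakest of all, with every fold between 3.54 and 5.97.

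**Figure D5:**
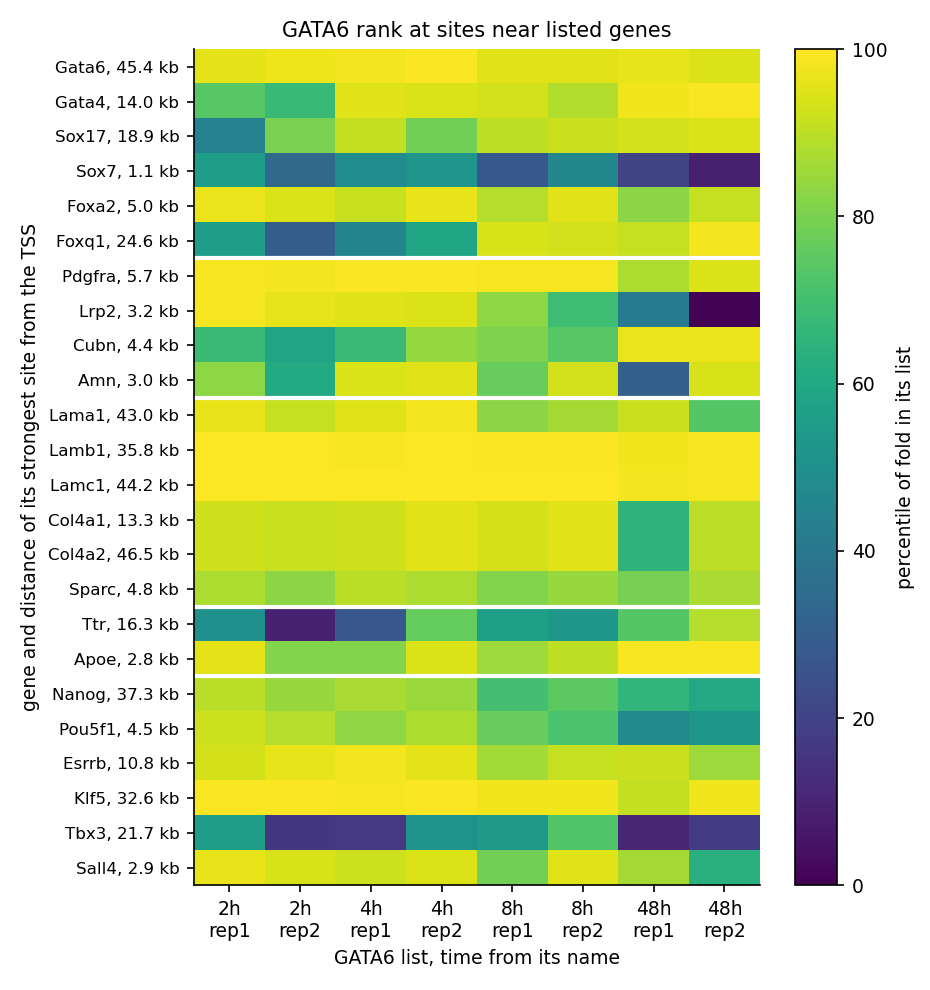
Percentile of GATA6 fold within each list at the highest ranking lasting site within 50 kb of 24 listed genes, with its distance from the TSS; columns are the 8 GATA6 lists from 2 to 48 h and white lines part the gene lists. Gata4, Sox17, Foxq1 and Cubn run from lower to higher percentiles, Lamb1 and Lamc1 stay near the top, and Lrp2 and Pou5f1 run the other way. Col4a1 and Col4a2 share 1 site.

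The receptors and adaptors did not share a course. Near Pdgfra, the receptor that marks PrE cells, the site 5.72 kb upstream had GATA6 at 35.6 and 28.5 at 2 h, 40.9 and 46.7 at 4 h, 27.3 and 31.0 at 8 h and 10.8 and 12.2 at 48 h. GATA4 was at 9.86 and 11.2 and SOX2 appeared only from 2 h on. Near Cubn, which encodes the endocytic receptor cubilin, GATA6 went from 7.04 and 6.16 at 2 h to 17.4 and 15.4 at 48 h, with SOX17 at 33.2 and 39.2 and no GATA4 or NANOG in any list. The intron of Lrp2, which encodes its partner megalin, went the other way, from 33.1 and 20.8 to 5.53 and 2.70. The 48 h replicates of the Amn site lay apart, at percentiles of 30.8 and 93.9.

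Of the 3 laminin sites, those of Lamc1 and Lamb1 stayed near the top of every list and that of Lama1 did not. The site 44.2 kb upstream of Lamc1, the laminin γ1 gene, had GATA6 at 103 and 94.7 at 2 h, 60.0 and 60.8 at 4 h, 48.7 and 63.0 at 8 h and 20.3 and 19.8 at 48 h, and ranked 9th of the lasting sites. It held NANOG and SOX2 in all lists, those of 0 h included. The Lamb1 site, 35.8 kb upstream, had Gm6993 as its nearest gene and GATA6 at 51.4 and 55.6 at 2 h and 19.2 and 18.6 at 48 h, with neither Epi factor at 0 h and both in every list from 2 to 8 h. Its SOX2 fold was 23.3 and 26.9 at 8 h. The Lama1 site, 43.0 kb upstream, had Lrrc30 as its nearest gene. GATA6 was there at 24.0 and 14.3 at 2 h and 12.5 and 6.61 at 48 h, with 48 h percentiles of 92.0 and 73.8. Sparc and Col4a1, genes of the same basement membrane, had intronic sites at 8.88 and 8.82 and at 7.05 and 9.65 at 48 h.

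Some pluripotency genes also had lasting sites. Pou5f1, which encodes OCT4, had a site 4.53 kb upstream where GATA6 went from 16.1 and 12.6 at 2 h to 5.80 and 5.07 at 48 h. SOX2 was in all 8 lists there, SOX17 reached 48.3 and 54.2 at 24 h, and GATA4 was in neither list. An intron of Esrrb, an orphan nuclear receptor gene, had GATA6 at 17.6 and 20.7 at 2 h and 12.5 and 8.26 at 48 h, with GATA4 at 20.2 and 16.9 and SOX17 at only 3.95 and 4.56. The site counted for Nanog lay 37.3 kb away in an intron of Slc2a3, a glucose transporter gene.

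The genes that were nearest to the most lasting sites were Etl4, Pdgfra and Tead1 with 6 each, then Chn2, Cntnap2, Epha4, Fgfr2, Flrt3, Gata4 and Lamc1 with 5, the last 7 being first by symbol among 16 genes with 5. Around Pdgfra 6 sites were lasting and 2 released, around Gata4 5 and 1, and around Fgfr2, an FGF receptor gene, 5 and 1. Around Etl4 and Lamc1 the released sites were more numerous, 17 beside 6 lasting and 12 beside 5. They were also more numerous in the whole set, with 12429 released and 2321 lasting sites. SOX17 was in both lists at all 6 Pdgfra sites and GATA4 at 5 of them, beside 86.6% and 56.6% of all lasting sites. Both factors were in both lists at all 5 Fgfr2 sites, which lay 68.7 to 219 kb from its TSS, and at 52.4% of all lasting sites. In all, 1783 genes were the nearest to a lasting site, and 1435 of them to only 1.

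The highest GATA6 ranks over all 8 lists belonged to sites near Cd59a, Zfhx3, Cobl, Dnmt3a, Fgfr3, Arglu1, Nfkb1, Spry2, Lamc1, Araf, Cntnap2 and Flt1. At the Cd59a intron GATA6 was at 121 and 109 at 2 h and 52.4 and 63.1 at 48 h, with GATA4 at 31.2 and 30.8 and SOX17 at 44.3 and 40.8. At the Zfhx3 intron it was at 72.5 and 71.8 at 2 h and 35.0 and 29.9 at 48 h. NANOG was absent there at 0 h, at 35.3 and 23.0 at 2 h, 24.1 and 16.0 at 4 h and 7.79 and 5.61 at 8 h. The site 35.4 kb upstream of Flt1, a VEGF receptor gene, had overlapping values at both ends, 42.0 and 51.3 at 2 h and 38.2 and 45.8 at 48 h, with SOX17 at 66.1 and 57.1. All 12 of these sites carried SOX2 in both 8 h lists, as did 62.4% of all lasting sites and 14.9% of all 2 h GATA6 regions.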

How the data were processed

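Of the 57 samples, the CUT&RUN peak lists of 30 were used here, with 15 groups of 2 lists named from the sample titles, and the other 27 were left aside. In the study's methods, reads were aligned by the authors to mm10 (GRCm38) with Bowtie2. They removed blacklisted regions, kept duplicates in these cells, used short fragments for transcription factors and called narrow peaks with MACS for each library against an anti-rabbit control. The deposited lists give the fold (a ratio of enrichment over the control), −log10 p-values and −log10 q-values. The deposited score, a rescaled −log10 q, was not used. For time points of GATA6 at 4, 8 and 48 h the names of the peaks were followed, not the records.

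Where several peaks overlapped a region, that with the highest −log10 q gave its fold. The percentile is the rank of a fold within its own list. The members, gene lists and tests were chosen with earlier results of these data known. Released sites had peaks in both lists at 2, 4 and 8 h and in neither at 48 h. Lists, not regions, were the replicates: shares were compared between time points by exact permutation of lists (F statistic), gaps by exact sign flips, and p-values of the 6 tests were adjusted together (Benjamini-Hochberg). The study reports that replicate experiments were done independently, without stating whether the 2 lists of a group came from separate cultures. The p-values therefore measure the spread between these libraries. A pair of time points, 2 lists against 2, was not tested.

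Depth was recovered from the 30 commonest pairs of fold and −log10 p of each list, as the background shared by pairs that give whole-number pileups within 0.2%. The GATA4 pileups gave no shared background. In the GATA6 0 h lists only 3 and 4 pairs shared it. Genes were protein-coding transcripts of GENCODE vM21, and sequences came from RefSeq GRCm38.p6, in which no peak lay beyond a chromosome end. The summit was that of the 2 h list with the higher −log10 q. Named sites were the 12 with the highest mean percentile over 8 lists, the highest ranking site within 50 kb of up to 25 listed genes (1 of which is not reported here), the 5 largest rises and falls in percentile with no overlap between 2 and 48 h, and the 10 genes nearest to the most sites. Alternatives were a larger overlap, stricter peaks, equal list lengths, a fixed window, another class for comparison, bins of GATA6 fold, a replicate block, leaving out each list, and other windows for genes and letters. The bins of 8 h fold and leaving out chrM and 0 h sites were added after seeing the data. Overlaps and exact tests were checked on simulated data (Python 3.11.15, numpy 2.4.6, pandas 2.3.3, scipy 1.17.1).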

Additional observations from a re-analysis of the deposited data

Results flagged for a closer look

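The difference between lasting and released sites in their share with a peak was not the same at every time point, for either Epi factor. For NANOG the mean gap was 9.37 percentage points larger at 2 h than at 0 h, and the gap differed over the 4 time points (exact permutation test, p = 0.0286, adjusted 0.0313). The same difference was 5.74 points within bins of the GATA6 2 h fold, 2.60 within bins of the 8 h fold and 5.22 with the top 10000 peaks of every list. Both 0 h lists were below 0 and all 6 later lists above. For SOX2 the mean gap was 10.3 points larger at 2 h than at 0 h, with the same split of the lists. Under the same alternatives the difference was 6.87, 4.36 and 5.15 points. The SOX2 gap differed over the 4 time points (exact permutation test, p = 0.00952, adjusted 0.0313). With lists exchanged only within replicate numbers, neither gap over time passed (exact permutation tests, adjusted p = 0.0833 for NANOG and 0.0625 for SOX2). The medium also changed between 0 h and the later times, which cannot be told apart from induction.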

How the results depend on the processing

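With a minimum −log10 q of 5, 1495 sites were lasting, 75.0% of them with a GATA match, and the mean NANOG gap was 4.34 points (adjusted p = 0.0703, exact sign-flip permutation test). With the top 10000 peaks of every list, 1214 sites were lasting, GATA4 covered 75.5% and SOX17 76.0%, the GATA6 percentile difference between 48 and 2 h was 3.21 in place of -16.2 points, 21 listed genes were near, and the mean gaps were 0.467 points for NANOG and 8.07 for SOX2, neither past 0.05. Within bins of the 2 h fold the gaps were 0.546 and 8.60 points, and within bins of the 8 h fold, chosen after seeing the data, -0.848 and 7.86, again not past 0.05. The records' order of times gave a GATA6 percentile difference of -3.00. Within 10 kb, 20 listed genes were near a lasting site, and GATA matches were at 34.0% within 50 bp and 98.2% in whole regions.

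Site by site, lists of the same replicate number showed little shared deviation over 6 pairs of time points. The correlations of their deviations ran from -0.0299 to 0.0507 for NANOG and from -0.0826 to 0.0203 for SOX2. A correlation takes no account of a shift of a whole list, which would move the shares. It therefore cannot decide whether lists of the same replicate number are paired. With the replicate block, the changes over time had the same values, 48.8 for the NANOG share, 9.37 for its gap, 29.0 for the SOX2 share and 10.3 for its gap, with adjusted p of 0.0833 for NANOG and 0.0625 for SOX2 (exact permutation within replicate numbers).

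Leaving out 1 list at a time, the NANOG gap ran from 4.93 to 7.76 points and the SOX2 gap from 11.5 to 16.8, each keeping its call in 10 of 16 fits and losing it without any 1 list of that factor at 2, 4 or 8 h. The NANOG share change ran from 39.9 to 57.7 (14 of 16, lost without either 4 h list) and that of SOX2 from 19.3 to 38.7 (11 of 16, lost without 0 h replicate 2, 2 h replicate 1, 4 h replicate 1 or either 8 h list). The gaps over time kept their call in all 16 fits each. GATA4 covered 55.3% to 71.8% of sites and SOX17 85.2% to 93.2%, GATA matches 69.5% to 76.0%, and the GATA6 percentile difference ran from -28.7, without 48 h replicate 2, to -14.3. The number of lasting sites ran from 2324 to 3507, the latter without 48 h replicate 1. The cause of these changes was not tested.

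Depth limits what absence means: a site without a peak is one where none passed the q-value limit of that list. Both GATA6 0 h lists and SOX2 8 h replicate 1 had the lowest coverage recovered.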
